A study of Mus musculus with 2 samples.

Results

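Heat shock proteins and their co-chaperones were examined in lamina propria macrophages sorted from the mouse colon, on 1 array from mice given plain drinking water and 1 array from mice given 3% (wt/vol) dextran sulfate sodium (DSS), an agent that damages the colon epithelium and causes colitis. The water and the DSS solution were each given for 5 days, and the labels call the control cells untreated. The members were chosen by gene symbol: every gene whose symbol starts with Hspa, Hspb, Hspd, Hspe, Hsph, Hsp90, Dnaja, Dnajb or Dnajc, or with Bag or Hsf followed by a digit. This gave 116 probe sets, 106 listed for a single gene and 10 shared with other listed genes, and 83 of 19938 genes with a probe set of their own. Hspa1b had only a shared probe set, and values for Hsp90ab1 and Hsf1 were not analysed here. The cells of both arrays were gated as CD45+, IAb+, CD11b+ and CD103- and as positive for the macrophage antigen that Adgre1 encodes, and the labels give no genotype, strain, sex, age or number of mice per array.

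Heat shock proteins bind unfolded or newly made proteins and keep them from aggregating. HSP70 does so in cycles of ATP hydrolysis, which J-domain proteins (the DNAJ families) start and nucleotide exchange factors (HSP110 and BAG proteins) end. HSP90 completes the folding of kinases and receptors, small heat shock proteins hold unfolded clients without ATP, and HSP60 with HSP10 forms a folding chamber in mitochondria. Heat shock factors switch on the inducible cytosolic members, whereas the unfolded protein response controls those of the endoplasmic reticulum (ER).

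There were no replicate arrays. Each value is a log2 signal, and each difference is DSS minus control on that scale, so that a difference of 1 is 2-fold. No standard error or p-value could be given, and every difference compares these 2 arrays. As yardsticks, differences had a robust SD of 0.27 across all 19938 genes and of 0.39 over the 9969 genes with a mean signal at or above the median. The SD between probe sets of the same gene was 0.27 over 979 genes, which covers probe noise only. Array medians were 5.70 (control) and 5.62 (DSS). Of the 83 member genes, 65 were at or above the median on both arrays, 5 on 1 array and 13 on neither. No detection call was made here, and a signal under the median may be background, so folds that end there are read as inexact.

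The antigens of the gate were present on both arrays: Ptprc (CD45), H2-Ab1 (IAb), Itgam (CD11b) and Adgre1 were all above the medians, and Itgae (CD103) was under them on both. Their levels were not all alike: Adgre1 differed by -0.82, Itgam by 0.60, Ptprc by 0.40 and H2-Ab1 by 0.14. The arrays differed further in their myeloid markers. Of 12 neutrophil genes, 12 were at least 2-fold higher in DSS, and their summed signal was 10.97 in control and 14.98 in DSS. All 6 monocyte genes were likewise higher, with summed signals of 10.85 and 13.84, and 7 of 12 resident macrophage genes were at least 2-fold lower, with summed signals of 14.43 and 13.15. No list had a marker at 0, since the array gives a signal for every probe set. Fewer cells of a type and less RNA per cell cannot be told apart in such bulk samples, and the part of these cell populations in the chaperone differences below was not tested.

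A small set of cytosolic chaperone genes was much lower on the DSS array, and the other members lay within 2-fold. Of the 83 member genes, 7 (8.43%) were lower in DSS by 2-fold or more and 0 were higher by as much. Of all genes, 1.72% were that much lower and 2.25% that much higher. Members are brighter than most genes, so the genes at or above the median on both arrays are the closer comparison. Of these, 6 of 65 members were that much lower and 0 higher, beside 268 lower and 331 higher of 10052 genes. At 3-fold, 6 members were lower and 0 higher, beside 0.592% and 0.918% of all genes, and at 1.5-fold 11 were lower and 2 higher, beside 5.33% and 5.76%. The 7 genes were Hspb1, Bag3, Hsph1, Hspa1l, Dnajb1, Hspa1a and Dnaja4, and they came from 6 families (small heat shock proteins, BAG, HSP110, DNAJB, DNAJA and, with 2 genes, HSP70). All 7 encode proteins of the cytosol. The other 76 members lay between -0.74 and 0.74 on the log2 difference scale. The median difference was -0.12 over the members and -0.06 over all genes, so the whole group was not displaced as the 7 genes were.

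**Figure D1:**
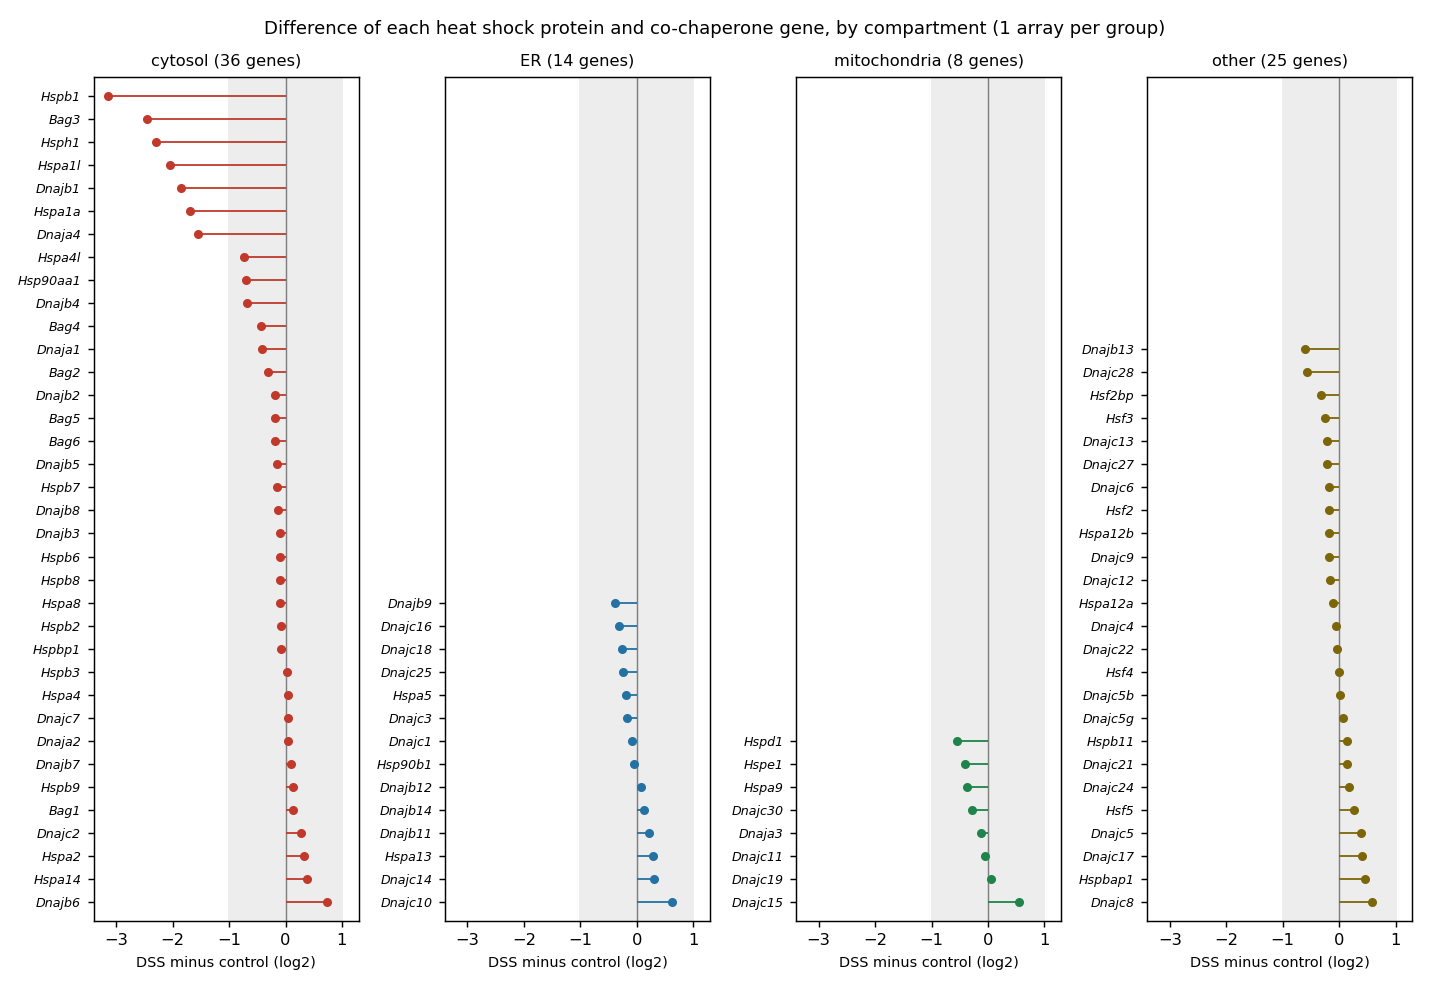
Log2 DSS minus log2 control (x axis) for each of the 83 member genes (rows), in panels by compartment of the protein; points are single differences between 2 arrays, with no error, and the grey band marks less than 2-fold. The 7 genes outside the band are all cytosolic and all lower in DSS, from -3.15 (Hspb1) to -1.55 (Dnaja4).

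Promoter sequences of 4 of the 7 genes, those with a match upstream of the start site, are shown for their heat shock elements, the inverted repeats of GAA that heat shock factors bind. RefSeq windows of 300 bases (250 before and 50 after the start site, build GRCm38.p6) were matched for 68 of the 83 genes and searched on both strands. The capitals mark the 2-unit element (GAANNTTC or TTCNNGAA) in stretches that end at the base before the start site. They come from chr17:34972157-34972306 (minus strand) for Hspa1a, chr5:135887769-135887918 (plus strand) for Hspb1, chr5:149636337-149636486 (minus strand) for Hsph1 and chr9:54699439-54699558 (plus strand) for Dnaja4. Of the 2 start sites listed for a gene, that of Hsph1 is the upstream and that of Dnaja4 the downstream site.
Hspa1a: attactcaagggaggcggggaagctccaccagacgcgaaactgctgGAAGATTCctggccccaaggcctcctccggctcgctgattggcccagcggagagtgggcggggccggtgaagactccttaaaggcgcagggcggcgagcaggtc
Hspb1: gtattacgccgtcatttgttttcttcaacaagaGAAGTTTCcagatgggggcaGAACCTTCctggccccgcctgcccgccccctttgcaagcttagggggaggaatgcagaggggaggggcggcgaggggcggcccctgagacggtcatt
Hsph1: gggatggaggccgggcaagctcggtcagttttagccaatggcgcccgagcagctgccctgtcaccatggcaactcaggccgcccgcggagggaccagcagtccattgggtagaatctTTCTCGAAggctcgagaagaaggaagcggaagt
Dnaja4: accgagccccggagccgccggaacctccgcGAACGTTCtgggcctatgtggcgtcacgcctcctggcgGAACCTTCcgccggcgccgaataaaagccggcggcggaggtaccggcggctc

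The 2-unit element was found in the windows of 5 of the 7 genes that were at least 2-fold lower. Besides the 4 genes shown, Bag3 had it 43 bases after the start site, and Dnajb1 and Hspa1l had no match in their windows. It was found in 12 of the 61 other member genes with a window and in 4587 of the 27025 genes in the table, so it is a common string. A gene with more than 1 window, as Hsph1, Dnaja4 and Dnajb1 have, had more chances of a match. A match describes the letters only and says nothing about binding in these cells.

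The small heat shock protein gene Hspb1 (HSP25, the mouse form of HSP27) had the largest difference of any member. Its probe set 10408928 read 9.61 in control and 6.46 in DSS, 8.88-fold lower. The second Hspb1 probe set, 10526410, read 9.32 and 6.21. The differences of -3.15 and -3.11 were thus nearly equal on both probe sets, and Hspb1 had the 12th lowest difference of all 19938 genes. Its promoter stretch holds 2 of the short elements. None of the other 6 small heat shock protein genes (Hspb2, Hspb3, Hspb6, Hspb7, Hspb8 and Hspb9) differed by more than 0.15 in either direction. Most of these are known from muscle or testis, and their control signals lay between 4.89 and 6.24, near or under the array median. The family median of -0.09 turned to 0.03 under loess centring, so no direction is given for the family.

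Bag3 encodes the BAG protein that joins HSP70 to small heat shock proteins and to selective autophagy. It read 9.46 in control and 7.01 in DSS, 5.46-fold lower. Its family members did not share this distance. Bag4 (6.33 and 5.89) and Bag2 (5.74 and 5.44), an inhibitor of the ubiquitin ligase CHIP, had differences of -0.43 and -0.30. Bag5 and Bag6, the latter a factor that guides tail-anchored membrane proteins, had a difference of -0.19 each. Bag1, a nucleotide exchange factor of HSP70, read 11.36 and 11.50, a difference of 0.14 that turned to -0.02 under loess centring. Bag3 was therefore the only BAG gene outside 2-fold.

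Among the HSP110 nucleotide exchange factors, Hsph1 (HSP105) stood furthest apart. It read 11.73 in control and 9.44 in DSS, 4.89-fold lower. Hspa4l read 9.61 and 8.87, a difference of -0.74, and Hspa4 read 10.36 and 10.41, a difference of 0.05 that turned to -0.08 under loess centring. These closely related genes thus covered the range from near-equal signals to almost 5-fold.

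Within the HSP70 family, Hspa1a and Hspa1l were lower in DSS by 2-fold or more. Hspa1a, which encodes the main stress-inducible HSP70, read 11.99 in control and 10.31 in DSS, 3.22-fold lower. The probe set shared by Hspa1a and the near-identical Hspa1b read 11.45 and 8.60, 7.24-fold lower. Both probe sets were lower in DSS, and which of the 2 genes accounts for the shared signal was not tested. Hspa1l, an HSP70 gene best known from testis and the direct neighbour of Hspa1a in the RefSeq table, read 7.80 and 5.74, 4.15-fold lower, with a DSS signal just above the array median. Hspa8, which encodes the constitutive HSC70, had 3 probe sets of its own with differences of -0.08 to -0.09, the highest reading 12.64 and 12.55. A further 2 probe sets shared by Hspa8 and the small nucleolar RNAs Snord14c and Snord14d, which lie in its introns, each had a difference of -0.65. They can carry the small RNAs' signal and are not read as Hspa8.

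The remaining HSP70 genes lay on both sides of 0. Hspa14, of the ribosome-associated complex, read 8.91 and 9.29, and Hspa2, an HSP70 of sperm development, 7.31 and 7.63. The distant relatives Hspa12a and Hspa12b were under the medians of both arrays. The family of 10 genes had a median of -0.15, with 2 genes lower by 2-fold or more and 0 higher.

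Among the J-domain genes, Dnajb1 and Dnaja4 were lower in DSS by 2-fold or more. Dnajb1, the classical HSP40, read 10.46 in control and 8.60 in DSS, 3.63-fold lower. Dnaja4 read 6.87 and 5.32, 2.94-fold lower, and its DSS signal was under the array median. Both genes thus lay outside 2-fold, the second with an inexact fold. Dnajb4, close to Dnajb1 in sequence, read 10.26 and 9.57, a difference of -0.69. Dnaja1 depended on the probe set: the brightest read 12.54 and 12.13 (a difference of -0.41), another read 10.76 and 9.71 (-1.04), and the set shared with the microRNA gene Mir207 read 9.59 and 9.12 (-0.47). Dnaja2 had a difference of 0.05, which turned to -0.05 under loess centring.

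Dnajb6, a J protein that suppresses aggregation of polyglutamine and amyloid proteins, was the member furthest in the other direction. Its own probe set read 8.67 in control and 9.41 in DSS, 1.67-fold higher. The 4 probe sets shared by Dnajb6 and the pseudogene Gm4247 were also higher in DSS, with differences of 0.31 to 0.38. All 5 thus pointed the same way, at less than 2-fold. The 4 shared sets can carry the Gm4247 signal and are not read as Dnajb6 alone. Of 4 DNAJA genes only Dnaja4 was outside 2-fold, of 13 DNAJB genes only Dnajb1, and of 28 DNAJC genes 0 were in either direction. Dnajc10 at 0.62 and Dnajc8, a spliceosome J protein, at 0.58 followed Dnajb6 on the higher side.

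**Figure D2:**
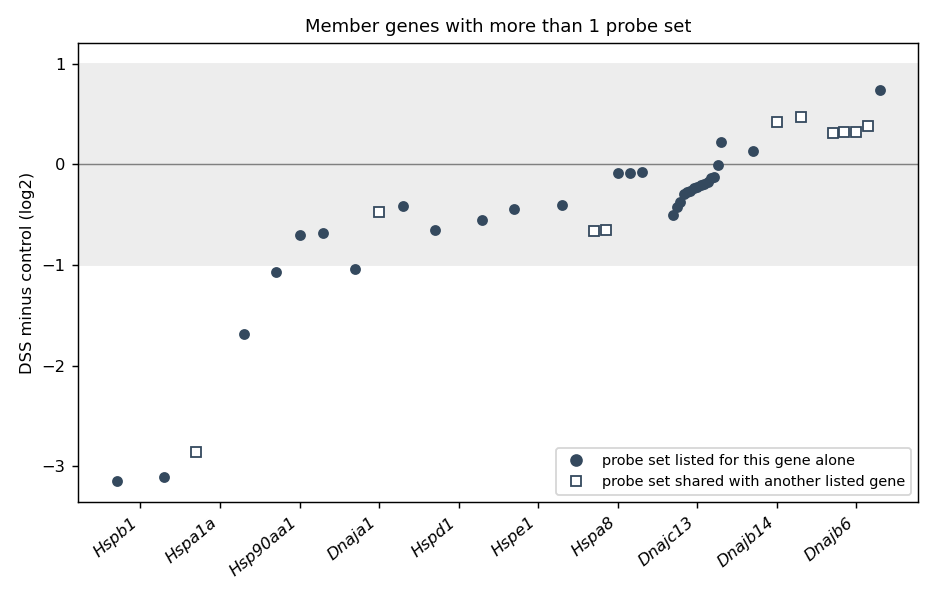
Log2 DSS minus log2 control (y axis) of every probe set of 10 member genes that have more than 1; filled circles are probe sets listed for that gene alone and open squares those shared with another listed gene, with no error. Both Hspb1 probe sets lie near -3.1, and 1 of 3 Hsp90aa1 sets and 1 of 2 Dnaja1 sets of their own lie below -1. All 5 Dnajb6 sets, shared ones included, lie above 0.

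Among the members chosen by symbol, HSP90 had a cytosolic and an ER gene with values. Trap1, from the list of mitochondrial folding genes below, falls outside the symbol rule and differed by -0.13. Hsp90aa1, the inducible cytosolic form, had 3 probe sets, with control signals of 12.50, 12.30 and 12.08 and DSS signals of 11.80, 11.61 and 11.01. Every set was lower in DSS, with differences of -0.71, -0.68 and -1.07. Hsp90b1 (GRP94), the HSP90 of the ER, read 12.64 and 12.59. Its difference of -0.05 turned to 0.03 under median centring.

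Of the heat shock factors, Hsf2 to Hsf5 had values, and Hsf1, the main factor of the heat shock response, was not analysed here. Hsf2 was the only one of the 4 above the median on both arrays, at 6.94 in control and 6.76 in DSS. Hsf4 read 5.66 and 5.67. Hsf5 and Hsf3, under the median on both arrays, differed by 0.26 and -0.26. None of the 4 reached a difference of 0.3, and transcript levels do not measure the activity of these factors. Genes with a similar name that belong to none of these families were also members. Of these, Hspbp1, itself an exchange factor of HSP70, differed by -0.09 and Hspb11, a protein of cilia transport, by 0.14. Hspbap1 differed by 0.46 and Hsf2bp by -0.31.

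Cytosolic members therefore held all 7 of the large differences, in 36 genes with a median of -0.14. The 14 ER members had 0 genes outside 2-fold in either direction and a median of -0.07, which turned to 0.02 under median centring. Hspa5 (BiP), the HSP70 of the ER and a standard marker of the unfolded protein response, read 12.38 in control and 12.19 in DSS. Dnajb9 (ERdj4), a BiP co-chaperone, read 9.90 and 9.52, the lowest ER difference at -0.39. Dnajc10 (ERdj5), a disulfide reductase, read 8.54 and 9.16, the highest at 0.62. Dnajc14, Hspa13, Dnajb11 (ERdj3) and Dnajc16 had differences of 0.31, 0.29, 0.23 and -0.32. ER members thus lay on both sides of 0, each under 2-fold. The 2 probe sets shared by Dnajb14, of the ER membrane, and Pin4, a prolyl isomerase, had differences of 0.42 and 0.47, against 0.13 for the probe set of Dnajb14 alone.

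The ER stress element (CCAAT, a gap of 9 bases, then CCACG) marks promoters of the unfolded protein response. It was found in Hspa5, Hsp90b1 and Dnajc3 (p58IPK), 3 of the 12 ER members with a window, and in 0.14% of all genes in the table. These 3 genes had differences of -0.19, -0.05 and -0.18, all within 0.2 of equal signals. The stretch of Hspa5 at chr2:34771940-34772089 (plus strand) is shown with the element in capitals, as the ER counterpart of the heat shock promoters.
Hspa5: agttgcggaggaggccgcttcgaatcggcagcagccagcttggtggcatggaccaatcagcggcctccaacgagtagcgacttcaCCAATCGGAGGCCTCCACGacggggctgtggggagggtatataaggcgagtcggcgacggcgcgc

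The mitochondrial members lay within 2-fold, with 6 of 8 below 0 and 2 above. Hspd1 (HSP60) had a probe set at 11.86 in control and 11.31 in DSS and another at 10.41 and 9.76. Hspe1 (HSP10), its lid, had a probe set at 12.04 in control and 11.63 in DSS and another at 11.95 and 11.50. The 4 probe sets of this chaperonin were all lower, with differences of -0.41 to -0.65, and Hspa9 (mortalin), the HSP70 of the matrix, differed by -0.36. Dnajc15 (MCJ), a J protein that restrains the respiratory chain, went the other way at 7.95 and 8.50, a difference of 0.55. Dnaja3 (TID1) differed by -0.12. Their median was -0.20, with 0 outside 2-fold in either direction.

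The longer 3-unit element (GAA, TTC and GAA again, or TTC, GAA and TTC, each 2 bases from the next, which holds 2 overlapping 2-unit elements) was found in 4 of 68 member genes and in 0.66% of all genes in the table. These were Hsph1, where it lies after the start site, Dnajb6 and the neighbours Hspd1 and Hspe1, which are transcribed away from a shared promoter. The shared stretch at chr1:55087998-55088147 (plus strand) and that of Dnajb6 at chr5:29735748-29735897 (plus strand) are shown with the 3-unit elements in capitals, because the genes differ in direction.
Hspe1: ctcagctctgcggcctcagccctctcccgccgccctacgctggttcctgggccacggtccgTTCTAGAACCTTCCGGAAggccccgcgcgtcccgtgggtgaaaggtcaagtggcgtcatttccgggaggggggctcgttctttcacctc
Dnajb6: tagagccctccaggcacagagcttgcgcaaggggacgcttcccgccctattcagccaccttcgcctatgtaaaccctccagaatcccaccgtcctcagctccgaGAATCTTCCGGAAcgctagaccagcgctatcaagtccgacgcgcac
The Hspe1 stretch holds 2 overlapping 3-unit elements and the Dnajb6 stretch 1. Of the 4 genes, Hsph1, Hspd1 and Hspe1 were 4.89-fold, 1.47-fold and 1.33-fold lower in DSS, and Dnajb6 was 1.67-fold higher.

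Outside these compartments (25 genes of other or mixed location), Dnajb13, a J protein of sperm and cilia, and Dnajc28 had differences of -0.61 and -0.57. Dnajc8 and Hspbap1 stood highest, and 0 genes were outside 2-fold. Dnajc13 (RME-8), of endosomes, had 15 probe sets with differences of -0.51 to 0.22 and a median of -0.22.

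**Figure D3:**
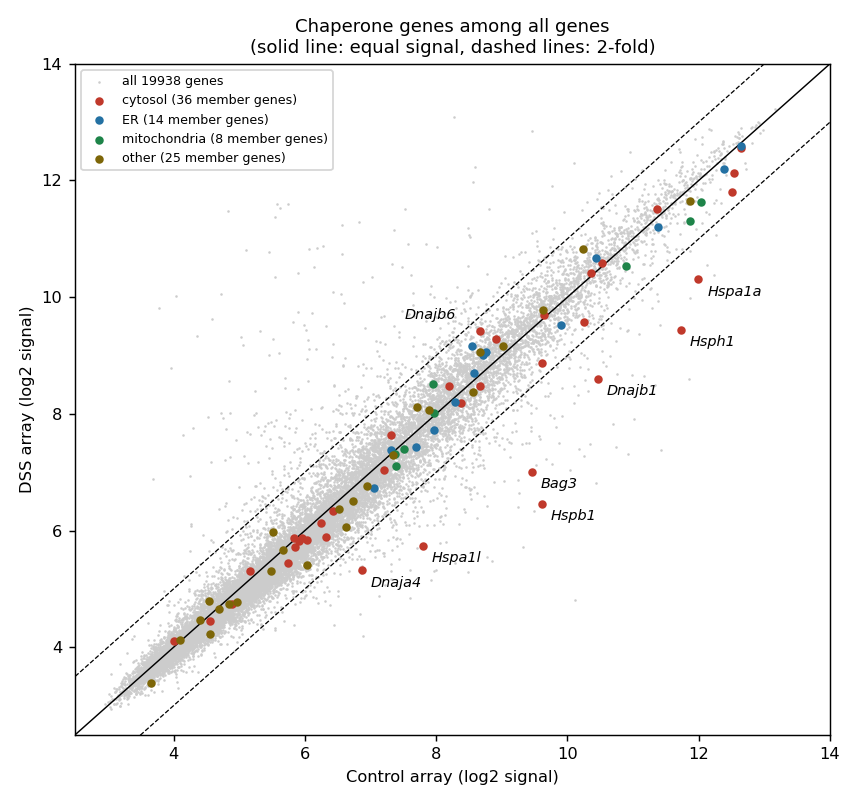
Log2 signal on the control array (x axis) and the DSS array (y axis) for all 19938 genes (grey) and the 83 member genes, coloured by compartment; the solid line marks equal signals and the dashed lines 2-fold. The 7 labelled cytosolic genes under the lower dashed line had control signals from 6.87 (Dnaja4) to 11.99 (Hspa1a).

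Chaperone genes outside the symbol rule were taken from 3 lists. Of 22 cytosolic chaperone and co-chaperone genes, 0 were outside 2-fold in either direction and the median difference was -0.06, as over all genes. The lowest were the HSP90 co-chaperones Fkbp4 (8.90 in control and 8.10 in DSS), Stip1, the adaptor between HSP70 and HSP90 (10.56 and 9.78), and Chordc1 (9.25 and 8.56). Fkbp5, an immunophilin induced by glucocorticoids, was highest at 6.36 and 6.85. The 8 listed subunits of the chaperonin TRiC (Tcp1 and Cct2 to Cct8) lay between -0.13 and 0.24. St13, Cacybp and the HSP90 co-chaperone Ahsa1 were also lower, with differences of -0.55, -0.505 and -0.35. Further HSP90 co-chaperones had differences of -0.05 for Cdc37, -0.07 for Ppid, 0.10 for Ptges3 and 0.30 for Unc45a. Both the HSP90 co-chaperones and the TRiC subunits thus lay on both sides of 0.

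The list of ER chaperones and unfolded protein response genes had 2 of 27 genes at least 2-fold lower, 0 higher and a median of -0.06. Ddit3 (CHOP), a transcription factor of prolonged ER stress, read 10.32 in control and 8.76 in DSS, 2.93-fold lower. Herpud1, of ER-associated degradation, read 10.66 and 9.56, 2.15-fold lower. Pdia4 differed by -0.48 and Edem1, furthest the other way, by 0.42. Xbp1 and Atf4, transcription factors of this response, and Ppp1r15a, which restores translation, had differences of 0.10, -0.25 and 0.09. Among 13 mitochondrial folding and quality control genes, 0 were outside 2-fold in either direction and the median was 0.07, with Hscb, an iron-sulfur cluster co-chaperone, at 0.73, Htra2, a protease, at -0.62 and Grpel2 at -0.43.

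Immediate early genes, which respond within minutes to many signals including the handling of cells, were listed for comparison. Of 13, 2 were lower in DSS by 2-fold or more, 0 were higher and the median was -0.21. Jun read 11.29 in control and 9.81 in DSS and Egr1 10.52 and 9.07, whereas Fos read 9.10 and 9.06. In all, 10 of the 13 were below 0 and 3 above, with Ier3 furthest above at 0.40. The part of this list in the differences of the 7 chaperone genes was not tested. Genes of fibroblasts, muscle and endothelium had 0 of 10 outside 2-fold, with 5 below 0 and 5 above, and a summed signal of 10.76 in control and 10.69 in DSS. The sum joins opposite differences. The fibroblast genes Dcn, Col3a1, Col1a1 and Col1a2 differed by -0.58, -0.47, -0.27 and -0.16. The genes listed for endothelium, Pecam1 and Cdh5, differed by 0.85 and 0.59. The muscle genes Cnn1, Acta2, Myh11 and Des differed by 0.59, 0.23, 0.01 and -0.28. Which cells gave these signals was not tested, nor was the part of these genes in the chaperone differences. Epithelial markers had 0 of 8 outside 2-fold (summed signals 9.14 and 9.19). B and plasma cell markers had 1 of 8 (Tnfrsf17, lower, with summed signals of 11.29 and 11.10). Of these 8, 4 were below 0 and 4 above, with Ms4a1, under both medians, at 0.76 and Mzb1 at 0.49. Tnfrsf17 ended under the array median, at 5.28 in DSS, and Jchain, the brightest of the 8, differed by -0.27. T and NK cell markers had 2 of 6 outside 2-fold (Cd28 and Cd2, lower, with summed signals of 9.21 and 7.96). The other 4 T and NK cell markers (Cd3d, Cd3g, Cd3e and Ncr1) were under the median of both arrays, with differences of 0.11 to 0.55, so the lower sum rests on Cd28 and Cd2.

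**Figure D4:**
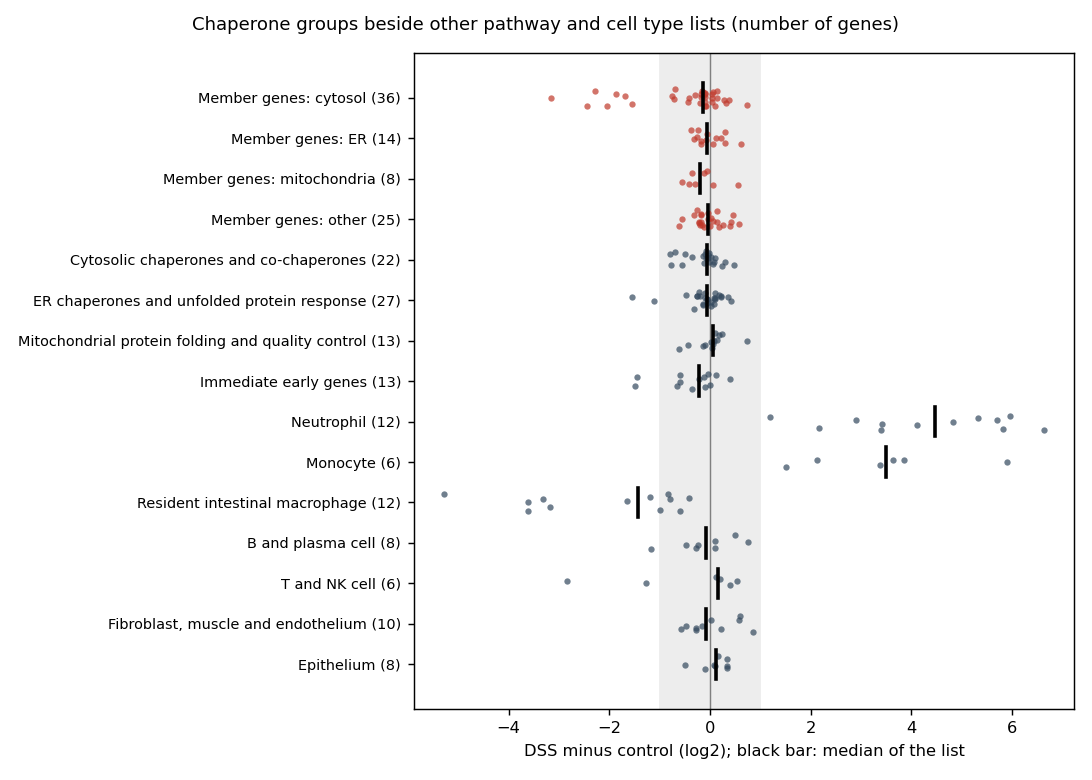
Log2 DSS minus log2 control (x axis) of single genes (points, spread vertically for visibility) in the member genes by compartment (red) and in other lists (blue), with the number of genes in brackets; the black bar is the list's median and the grey band marks less than 2-fold. The cytosolic members have a median of -0.14 with a tail of 7 genes to the left, against medians of 4.47 for neutrophil and -1.42 for resident macrophage markers.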

How the data were processed

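The authors deposited log2 signals per probe set for both arrays. Per the submitters' processing notes the tool was RMA, which corrects background, normalises and summarises probes; its settings, a genome build and array batches are not given here. RMA compresses differences between dim probe sets. The values were used as deposited.

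Genes were named from the platform's annotation table, and all 83 member symbols equalled those of RefSeq by Entrez identifier. Where a gene had several probe sets, the one brightest on average stood for it, out of the 21789 probe sets with 1 symbol. Probe sets with several symbols are given as shared. All genes were counted at 2-fold, with no filter on signal. Array medians rest on 28939 probe sets, without identifiers below the lowest annotated one. Families and compartments were assigned by hand from general knowledge, and the members and lists were chosen with earlier results of these data known. Named genes are those at least 2-fold apart, the 4 largest differences and the 1 furthest the other way in each compartment, all HSP90, HSP60, HSP10, BAG and HSF genes, Hspa1a and Hspa8, all shared probe sets, and 3 largest plus 1 opposite gene of each pathway list. Others, such as Dnajb4 and Hspa4, and marker genes were added to complete a family, after their values were seen. The alternatives were other scalings (median, loess with a span of 0.4), the mean of a gene's probe sets, 2 signal filters, a floor at the 25th percentile, sizes of 1.5-fold and 3-fold, and probe sets as units. The steps were tested on simulated data, with large changes planted in bright genes that have 1 probe set. That test did not cover dim genes, small changes or the choice between probe sets. Python 3.11.15, numpy 2.4.6, pandas 2.3.3, statsmodels 0.14.6 and matplotlib 3.10.9 were used. With 1 array per group, the number of arrays limits the precision, and an array batch cannot be told apart from the treatment.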

Additional observations from a re-analysis of the deposited data

How the results depend on the processing

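The same 7 genes were at least 2-fold lower in DSS, and 0 member genes were 2-fold higher, under each of 6 alternatives (median centring, loess centring, the mean over probe sets, both signal filters and the floor). Most of these could hardly change the count. Median centring shifts every difference by the same 0.08, the filters only keep or drop genes, and the floor left these 7 differences unchanged. Of the 7, the mean over probe sets changes only Hspb1. This agreement therefore says little about robustness. At 3-fold 6 were lower and 0 higher, and at 1.5-fold 11 were lower and 2 higher. With probe sets as units, shared ones included, 11 of 115 were lower, and the share over all probe sets was not counted. These 11 hold both Hspb1 sets and both sets that name Hspa1a. They also hold 1 set each of Hsp90aa1 and Dnaja1, whose brightest sets lay within 2-fold. Family and compartment medians near 0 turned sign. Under median centring these were the ER members (0.017), the members of other location (0.038) and DNAJC (0.043). Under loess centring these were small heat shock proteins (0.027) and HSF (0.0045), and under the floor HSF (0.0033). With probe sets as units these were ER (0.0081) and DNAJB (0.10), and the HSP90 median moved from -0.38 to -0.69, since Hsp90aa1 has 3 probe sets. Of single genes, 13 turned sign under a scaling, none of them with a deposited difference above 0.141 in size, and Dnaja1 moved to -0.73 with the mean over its probe sets. No paired analysis was possible because each group has 1 array, and no array could be left out.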
